A study of Drosophila ananassae with 54 samples.

Results

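The Malpighian tubules of KATH males were compared with those of FastBKK males at the rearing temperature of 22 °C, in the vinegar fly Drosophila ananassae. The comparison used 6 of the 54 RNA-seq libraries of the series, chosen by their labels as the tubule libraries of these lines that had not been in the cold. KATH comes from Kathmandu and FastBKK from Bangkok, and both are labelled cold-tolerant. KATH pooled 3 isofemale lines and FastBKK 4, an isofemale line being the descendants of 1 wild-caught female, and each tubule library was made from 60 adult males. Control flies spent 4 days at 22 °C from the day after they emerged from the pupa. In the libraries used beside them, the cold group spent 4 days at 10 °C and then 90 min in recovery. Hindgut libraries also held 60 individuals, while body libraries held 10 and used another extraction kit. SlowBKK, from Bangkok, labelled cold-sensitive and pooled from 4 isofemale lines, was not one of the lines compared: its levels stand beside theirs, and its tubule libraries enter the estimate of the spread behind every tubule p-value and the means over all tubule libraries.

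Malpighian tubules are the excretory and osmoregulatory organs of insects. Their principal cells carry a proton pump that drives potassium and sodium into the lumen, chloride and water follow, and the hindgut then reabsorbs much of what the tubules secrete. Loss of ion and water balance across these organs is a known part of chill injury in insects, and differences in tubule transport have been linked to cold tolerance in Drosophila. The comparison of KATH with FastBKK sets side by side the resting tubule of a pair of lines that share the tolerant label and differ in the population they came from. The population, the choice of isofemale lines and any difference between their cultures cannot be told apart. The replicates are separate libraries of the same pooled lines, so every p-value measures the spread between those libraries. In tissue of this kind, fewer cells of a type and less RNA per cell cannot be told apart either.

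The libraries held 32.9 to 40.3 M counts, and their ranked expression levels correlated at 0.967 to 0.972 with the mean of the other tubule libraries, against 0.786 to 0.814 with hindgut and 0.511 to 0.560 with body. The tissue label was checked by these rank correlations and by genes restricted to other tissues, since none of the gene identifiers matched the reference gene table and no marker could be looked up by name. Log2 CPM (counts scaled to a common library size) correlated at 0.957 to 0.978 in the 6 pairs of libraries within a line and at 0.941 to 0.967 in the 9 pairs between lines. The first principal component of the 6 libraries held 36.8% of the variance and put every KATH library (12.3 to 53.4) above every FastBKK library (-56.8 to 0.275). KATH replicate 1 stood apart in transcripts of other tissues. Over 956 genes that the body libraries expressed at a mean of at least 50 CPM and of which the median tubule library had under 1 CPM, its levels summed to 3689 CPM, while the other 5 libraries ranged from 136 to 475 CPM and the body libraries averaged 172240 CPM. FastBKK replicate 2 had the highest sum over 277 genes defined in the same way from the hindgut, at 949 CPM, and the other 5 libraries ranged from 81.7 to 535 CPM, against 131620 CPM in the hindgut itself. Between 202 and 521 of the body-restricted genes and between 19 and 72 of the hindgut-restricted genes had a count of 0 in a given tubule library. Of the 424 body-restricted genes that were tested, 6 were called higher and 2 lower in KATH, and of the 234 hindgut-restricted genes tested none was called higher and 1 was called lower. Over all genes tested 4.96% were called higher and 6.92% lower, and of the genes averaging under 1 CPM 6.85% were called. The restricted genes were defined by a low tubule level, so the number of calls among them does not measure carry-over. One hindgut library, FastBKK control replicate 3, also carried body transcripts: over 799 body genes with under 1 CPM in the median library of both organs, it held 6803 CPM, and the other 5 control hindgut libraries of KATH and FastBKK held 86.3 to 689 CPM.

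KATH and FastBKK tubules differed in both directions, and most of the differences that passed the test were small. Of 10132 genes tested, 1204 differed at a Benjamini-Hochberg adjusted p under 0.05 in edgeR's quasi-likelihood test, which is 11.9%. The 503 genes higher in KATH were 4.96% of the genes tested and the 701 lower in KATH were 6.92%. The median difference of the called genes was 0.84 on the log2 scale without regard to sign, with quartiles of 0.49 and 1.83, while the median log2 difference of all genes tested was -0.01. A fold of more than 2 was reached by 235 called genes that were higher and 291 that were lower, 5.19% of the genes tested, and a fitted fold of more than 8 by 75 and 72. In 65 called genes 1 line had at most 3 counts in each library, so that the fitted fold is not a bound. With these genes at their lower bound against 3 counts per library, 234 and 291 genes passed 2-fold, 56 and 63 passed 8-fold, and the median of 0.84 was unchanged. The 3 KATH libraries did not overlap the 3 FastBKK libraries in 1172 of the called genes, where 27.8% of all genes tested had groups that did not overlap. The genes called higher in KATH together took 7.68 to 8.34% of the counts of its libraries and 4.25 to 4.95% of those of FastBKK. The genes called lower took 9.16 to 9.74% in KATH and 13.6 to 15.6% in FastBKK.

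The number of calls depended on which libraries were included. It was 782 without KATH replicate 1, the library richest in body transcripts, and 751 without KATH replicate 5, and it lay between 849 and 1135 when any other of the 6 libraries was left out. Of the 1204 genes, 544 were called in all 6 of those fits and none was called with the opposite sign under any alternative. Without KATH replicate 1, 355 genes were higher and 427 lower, and without KATH replicate 5 the numbers were 322 and 429. Among genes averaging at least 1 CPM, 87 called genes and 57 uncalled genes differed by more than 8-fold in the fit. Of those 57 uncalled genes, 54 were higher in KATH. In 39 of them KATH replicate 1 alone exceeded both other KATH libraries by more than 10-fold, in 11 KATH replicate 5 did so, and 37 of the 57 were body-restricted.

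**Figure D1:**
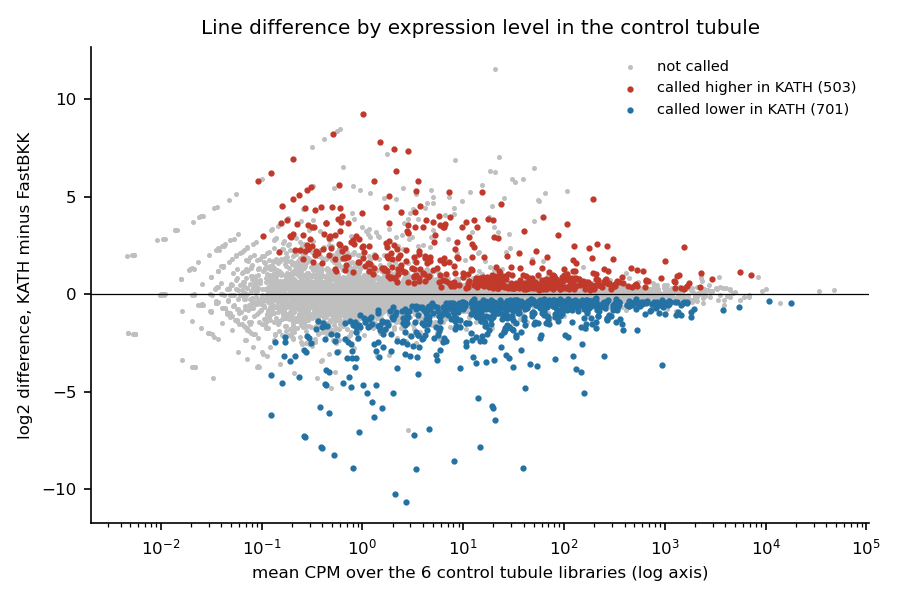
Each point is a gene tested in the control tubule; the horizontal axis is its mean level over the 6 libraries in CPM on a log scale and the vertical axis the log2 difference, KATH minus FastBKK. The 503 genes called higher and 701 called lower in KATH are coloured, and large differences without a call lie mostly on the KATH side.

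The share of genes called was larger at higher expression levels, and the differences called there were smaller. As the plot of difference against level shows, 6.85% of the 2014 genes under 1 CPM were called, and 24.1% of the 174 genes over 1000 CPM. Between these, the share was 11.7% from 1 to 10 CPM, 12.5% from 10 to 100 CPM and 16% from 100 to 1000 CPM. The median absolute log2 difference of the called genes was 2.87 under 1 CPM (2.30 with genes at the floor set to their bound), 1.43 from 1 to 10 CPM and between 0.54 and 0.60 in the 3 higher classes. The share also differed between genes of tubule, hindgut and body character. Of the 346 tested genes whose mean over the 9 control tubule libraries was at least 10 CPM and at least 5 times their level in both hindgut and body, 35 were higher and 51 lower in KATH, which is 24.9%. The corresponding shares were 6.73% of 1263 hindgut-high genes and 7.11% of 1154 body-high genes. Tubule-high genes needed at least 10 CPM in the tubule, and hindgut-high and body-high genes had no such minimum. Since the share called was larger at higher tubule levels, the classes differ in level as well as in character. Shares at equal level were not compared. The 7369 remaining genes had a share of 12.9%, close to the 11.9% of all genes tested.

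**Figure D2:**
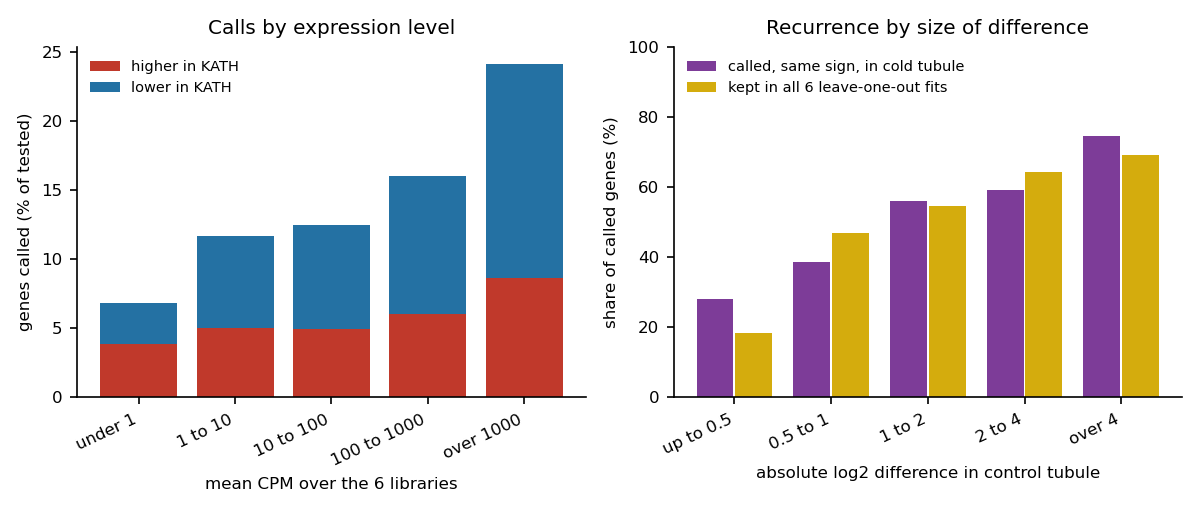
The left panel gives the percentage of tested genes called in the control tubule by class of mean level in CPM. The right panel gives, by size of the log2 difference, the percentage of called genes also called with the same sign in the cold tubule (28.1 to 74.7%) and the percentage called in all 6 fits that leave out 1 library (18.4 to 69.3%).

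Of the called genes, 753 averaged at least 10 CPM over the 6 libraries and had groups that did not overlap, and the genes with the largest differences were taken from these. No function is given for any of them, because no source used here annotates these identifiers. Higher in KATH by the most was GF26684 (FBgn0273907, scaffold 8605), with 15.3, 38.8 and 36.5 CPM in KATH replicates 1, 4 and 5 and 1.28, 0.660 and 0.442 CPM in FastBKK replicates 2, 3 and 4. Its lowest KATH library was more than 10 times its highest FastBKK library, and the log2 difference was 5.23 ± 0.78 (SE; adjusted p = 0.00059). SlowBKK had 1.24 to 2.04 CPM, close to FastBKK. In the control body GF26684 was low but also higher in KATH, averaging 1.46 CPM against 0.579 CPM in FastBKK. That log2 difference was 1.32 (edgeR's quasi-likelihood test, adjusted p = 0.0047). GF16549 (FBgn0093570, scaffold 13340) was the most abundant of the 8 genes with the largest difference toward KATH, at 244, 469 and 407 CPM in KATH and 5.82, 9.5 and 22.3 CPM in FastBKK. The groups were far apart, with a log2 difference of 4.90 ± 0.67 (SE; adjusted p = 0.000282). SlowBKK tubules held 85.2 to 180 CPM of it, between the other lines. GF16549 was higher still in the body, at 1364, 1835 and 1168 CPM in KATH and 576, 489 and 628 CPM in FastBKK, and was at most 2.07 CPM in any control hindgut library of KATH or FastBKK. KATH replicate 1, the library with the most body transcripts, had the lowest of the 3 KATH tubule values. The part of body transcripts in these values was not tested.

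GF13692 (FBgn0090720, scaffold 13266) was at 51.2, 40.7 and 43.9 CPM in KATH and 1.39, 1.55 and 2.52 CPM in FastBKK, with a log2 difference of 4.63 ± 0.72 (SE; adjusted p = 0.000833). It too was more abundant in the body, at 153 to 193 CPM in KATH and 199 to 343 CPM in FastBKK, a difference of -0.64 that did not pass (adjusted p = 0.0924). In the cold tubule its difference was 1.87 and did not pass (adjusted p = 0.064). KATH replicate 1 had the highest of the KATH control tubule values of GF13692, and the part of body transcripts in them was not tested. GF23204 (FBgn0100198, scaffold 12911) had 98.7, 96.9 and 155 CPM in KATH and 8.27, 6.89 and 7.73 CPM in FastBKK, with SlowBKK at 48.7 to 59.9 CPM. Its log2 difference was 3.93 ± 0.60 (SE; adjusted p = 0.000692). In the control hindgut GF23204 was also higher in KATH, averaging 65.7 CPM against 22.6 CPM in FastBKK. The hindgut log2 difference was 1.54 (edgeR's quasi-likelihood test, adjusted p = 0.000287). GF18194 (FBgn0095212, scaffold 13340) was at 25.7, 18.7 and 27.9 CPM in KATH and 0.909, 1.88 and 2.43 CPM in FastBKK, with a log2 difference of 3.80 ± 0.44 (SE; adjusted p = 7.84e-05). The same gene was at 156 to 179 CPM in KATH hindgut and 149 to 172 CPM in FastBKK hindgut, which did not separate. In cold tubules it averaged 371 CPM in KATH and 61.1 CPM in FastBKK.

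The other 3 of the 8 genes, GF27433, GF26277 and GF27381, had KATH levels of 16.9, 43.1 and 38.3 CPM, of 17.5, 48.6 and 43.6 CPM and of 9.61, 26.6 and 23.9 CPM. In FastBKK none of the 3 exceeded 3.41 CPM. Their log2 differences were 3.85, 3.79 and 3.71, with adjusted p values of 0.000606, 0.000159 and 0.00128. Together with GF26684 they formed a group that was noticed after the values had been seen: KATH replicate 1 was the lowest KATH library in each, below both other KATH libraries. The 4 genes lie on 4 scaffolds. Over the 18 tubule libraries the pairwise correlation of their log2(CPM + 0.1) was 0.970 to 0.995, and it was 0.831 to 0.968 for deviations from the group means. A further 6 genes had correlations with the mean of these 4 above 0.95 over all libraries and above 0.9 within groups, and all 6 were called higher in KATH: GF26272, GF26341, GF28059, GF27721, GF26969 and GF26889, by log2 differences of 3.54, 3.44, 2.55, 5.81, 5.21 and 3.80. Their 18 points share the tubule libraries and the line difference itself. GF26341, GF28059 and GF26969 have the same deposited length of 2727 bases, and GF27381, GF27721 and GF26889 that of 2019 bases. Whether near-identical sequences share reads among them was not tested, so their separate levels are uncertain.

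**Figure D3:**
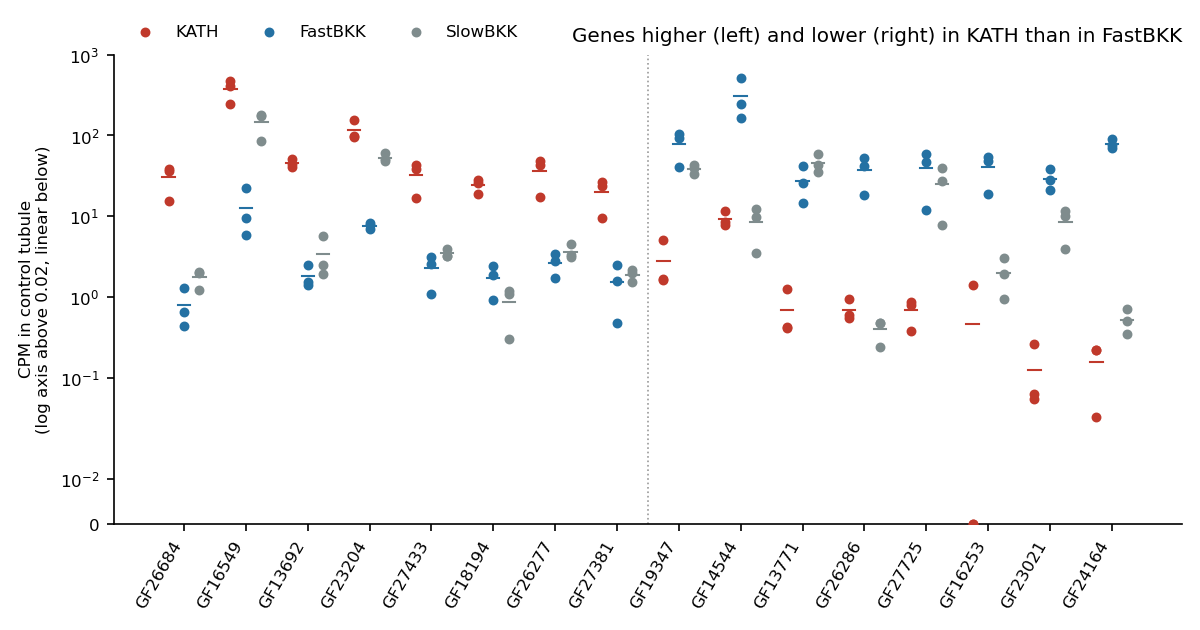
Levels in CPM of 16 genes in the control tubule libraries of KATH, FastBKK and SlowBKK, with 1 point per library and a bar at each group mean; the axis is logarithmic above 0.02 CPM and linear below it, so that counts of 0 can be drawn. The 8 genes with the largest differences toward KATH are on the left, the 8 with the largest toward FastBKK on the right, and no KATH point overlaps a FastBKK point of the same gene.

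The 8 genes with the largest differences toward FastBKK reached further, from -4.84 to -8.91 on the log2 scale, than the 8 toward KATH, from 3.71 to 5.23. GF24164 (FBgn0101158, scaffold 12943) was at 0.219, 0.0328 and 0.220 CPM in KATH and at 90.6, 76.4 and 69.5 CPM in FastBKK. It was close to absent from KATH and well expressed in every FastBKK library, with a log2 difference of -8.91 ± 0.54 (SE; adjusted p = 2.4e-07). SlowBKK was near KATH, at 0.349 to 0.720 CPM, so of the 3 lines only FastBKK had it above 1 CPM in these control tubules. In the body GF24164 was lower in KATH too, at 0 to 0.0562 CPM against 6.64 to 9.52 CPM in FastBKK. GF23021 (FBgn0100015, scaffold 12911) had 0.0626, 0.262 and 0.0549 CPM in KATH and 20.9, 28.3 and 38.2 CPM in FastBKK, with a log2 difference of -7.85 ± 0.71 (SE; adjusted p = 1.14e-05). Its SlowBKK level, 3.92 to 11.7 CPM, lay between the others. In the control body GF23021 was also lower in KATH, averaging 0.697 CPM against 2.10 CPM in FastBKK. That log2 difference was -1.58 (edgeR's quasi-likelihood test, adjusted p = 0.000981). GF16253 (FBgn0093275, scaffold 13340) had counts in KATH replicate 1 only, at 1.41 CPM, and 18.9, 54.4 and 48.4 CPM in FastBKK. Its log2 difference of -6.44 ± 1.08 (SE; adjusted p = 0.00142) moved with the libraries used, between -13.57 and -5.82 over the alternatives. The body expressed it at 36.1 to 88.2 CPM in these lines, averaging 40.2 CPM in KATH and 83.4 CPM in FastBKK. The body difference, -1.05 on the log2 scale, was also called lower in KATH (edgeR's quasi-likelihood test, adjusted p = 6.12e-05). KATH replicate 1 was the tubule library with the most body transcripts, and the part of these in its 1.41 CPM was not tested.

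GF26286 (FBgn0273509, scaffold 13337) was at 0.939, 0.558 and 0.604 CPM in KATH and 52.6, 42.4 and 18.1 CPM in FastBKK, a log2 difference of -5.75 ± 0.92 (SE; adjusted p = 0.00101). SlowBKK resembled KATH, at 0.242 to 0.480 CPM. In the hindgut the gene was at 49.6 to 57.7 CPM in KATH and 24.3 to 55.0 CPM in FastBKK, and these ranges overlapped. GF14544 (FBgn0091571, scaffold 12916) showed a similar arrangement at a higher level, with 8.51, 11.5 and 7.71 CPM in KATH, 163, 245 and 518 CPM in FastBKK and 3.51 to 12.4 CPM in SlowBKK. Its log2 difference was -5.06 ± 0.57 (SE; adjusted p = 6.25e-05), and the lines overlapped in the body, at 699 to 912 CPM in KATH and 670 to 953 CPM in FastBKK. In the hindgut KATH was at 458 to 588 CPM and FastBKK at 326 to 384 CPM, a difference of 0.48 that did not pass (adjusted p = 0.341). FastBKK replicate 2, the tubule library with the most hindgut transcripts, had the lowest FastBKK value. The part of hindgut or body transcripts in these values was not tested. GF27725 (FBgn0274948, scaffold 13337) was at 0.384 to 0.876 CPM in KATH and 12, 58.7 and 46.6 CPM in FastBKK, with a log2 difference of -5.85 ± 0.87 (SE; adjusted p = 0.00059). GF19347 (FBgn0096357, scaffold 13335) had 1.62 to 5.04 CPM in KATH, 40.5 to 106 CPM in FastBKK and 33.6 to 42.6 CPM in SlowBKK, a log2 difference of -4.84 ± 0.63 (SE; adjusted p = 0.000185), and was also lower in KATH hindgut and body.

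GF13771 (FBgn0090798, scaffold 13266) was the named gene whose line difference changed with the cold. At 22 °C it was at 1.25, 0.426 and 0.412 CPM in KATH and 14.8, 26.0 and 42.3 CPM in FastBKK, with a log2 difference of -5.31 ± 0.48 (SE; adjusted p = 1.14e-05). In the cold it averaged 13.4 CPM in KATH and 32.4 CPM in FastBKK, and the log2 difference was -1.27 (adjusted p = 0.0382). The change in the line difference from control to cold, 4.04, passed its own test (edgeR's quasi-likelihood test, adjusted p = 0.0115). In the control hindgut GF13771 was low in both lines and also called lower in KATH. It averaged 0 CPM there in KATH and 1.26 CPM in FastBKK (edgeR's quasi-likelihood test, adjusted p = 0.000974). Only 23 genes, 0.227% of the 10132 tested, had a line difference that changed with the cold, and 16 of them were among the 1204. In 12 of those 16 the change had the opposite sign to the control difference. The change subtracts the control difference by which these genes were called, so an opposite sign was favoured in advance. The count of 23 was unstable: leaving out single control libraries gave 36 without FastBKK replicate 3, 8 without FastBKK replicate 4, 12 without KATH replicate 1, 8 without KATH replicate 4 and 6 without KATH replicate 5.

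Some called genes had no count at all in 1 line. In 9 of them all 3 KATH libraries were at 0, and in 5 all 3 FastBKK libraries were. A count of 3 per library was taken as the floor, and differences against a line at 0 are lower bounds against it. GF21758 (FBgn0098758) had no count in KATH and was at 1.51, 9.56 and 5.18 CPM in FastBKK, so that it was at least 59.2-fold lower in KATH (adjusted p = 0.000153). It was not silent in KATH as such. The 3 KATH control hindgut libraries together held 3008 counts of it and the 3 KATH body libraries 3543. The log2 difference between the lines was 0.47 in hindgut and 0.023 in body. Neither passed edgeR's quasi-likelihood test (adjusted p of 0.376 and 0.848). GF21614 (FBgn0098614, scaffold 12943) had no count in KATH and 6.02, 3.2 and 3.31 CPM in FastBKK, at least 45.6-fold lower, with SlowBKK at 9.72 to 14.8 CPM. In that gene KATH was nearly silent elsewhere as well, with 1 count over its cold tubule libraries, 4 over its control hindgut libraries and 19 over its control body libraries. In the other direction GF16359 (FBgn0093380, scaffold 13340) had no count in FastBKK and averaged 2.02 CPM in KATH, at least 21.7-fold higher (adjusted p = 0.0106), and GF25203 (FBgn0102195, scaffold 13337) averaged 1.01 CPM in KATH and was at least 10.9-fold higher (adjusted p = 0.00167). Over the 14 genes the lower bound ranged from 1.96-fold to 59.2-fold. A count of 0 limits the level and does not show that a gene was off or missing from a genome.

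The most abundant called genes differed by small amounts. GF19382 (FBgn0096392, scaffold 13335) had the highest CPM of all called genes, at 16052, 14664 and 14627 CPM in KATH and 19215, 21667 and 21372 CPM in FastBKK. No library of 1 line reached the other, and the log2 difference was -0.46 ± 0.10 (SE; adjusted p = 0.0095). GF13105 (FBgn0090138), at 9414 ± 560 CPM in KATH and 12217 ± 593 CPM in FastBKK (SD, n = 3 each), GF19427 (FBgn0096436), at 4232 ± 208 and 6662 ± 1289 CPM, GF10980 (FBgn0088020), at 2714 ± 275 and 4794 ± 515 CPM, and GF21277 (FBgn0098279), at 1448 ± 104 and 2429 ± 542 CPM, were also lower in KATH. Their log2 differences were -0.38, -0.65, -0.82 and -0.75, with adjusted p values of 0.0231, 0.0397, 0.00288 and 0.00906. Among the abundant genes higher in KATH were GF17563 (FBgn0094581), at 9514 ± 3000 and 4832 ± 1498 CPM, and GF17430 (FBgn0094448), at 7668 ± 594 and 3527 ± 317 CPM. These differed by 0.98 and 1.12 on the log2 scale (adjusted p = 0.0292 and 0.0325). GF24358 (FBgn0101352) and GF12181 (FBgn0089220) differed by 0.80 and 0.36 (adjusted p = 0.0388 and 0.0296). GF23176 (FBgn0100170, scaffold 12911) had 3004, 3052 and 3377 CPM in KATH and 1557, 1618 and 1204 CPM in FastBKK, with a log2 difference of 1.11 ± 0.17 (SE; adjusted p = 0.000634).

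Besides a rule requiring a fold over 2, which the size of the difference alone decides, each of these 10 abundant genes was tested under 15 alternatives. GF23176 and GF10980 kept their calls in all 15, GF21277 lost it in 2, and the other 7 genes lost it in 6 to 8, with the sign kept in each. The 25 named genes that were not chosen for abundance kept their calls in every alternative that tested them. GF13858, GF20516, GF18005 and GF15739 were not tested under the filter at 10 CPM. In the cold tubule, GF21277 was called again (log2 difference -0.66, adjusted p = 0.0177). The other 9 were not, with log2 differences between -0.54 and 0.65 and adjusted p values from 0.0757 (GF19427) to 0.952 (GF24358).

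Called genes were spread over the scaffolds, and a few runs of consecutively numbered genes moved together. On the 12 scaffolds with the most tested genes the share called lay between 9.13% and 15.2%, beside 11.9% over all, and it was 14.9% over the 144 others. The 144 others had 67 genes called higher and 39 called lower in KATH, whereas each of the 12 had more genes lower than higher. Symbols of this annotation are numbered, and neighbouring numbers on a scaffold were taken as a guide to order, since no coordinates were used. Of the called genes whose next number was tested, 16.7% of 730 had a called gene next, where 11.9% of such next genes were called in general. In 122 pairs both members were called, with 20 pairs higher in KATH, 57 lower and 45 in opposite directions. There were 11 runs of 3 or more consecutive symbols with the same direction, 8 of them lower in KATH.

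The run with the largest differences was GF19546 to GF19548 on scaffold 13335. GF19546 was at 22.2, 27.2 and 23.0 CPM in KATH and 249, 265 and 144 CPM in FastBKK, and GF19548 at 26.3, 14.9 and 10.7 CPM in KATH and 226, 371 and 239 CPM in FastBKK. Their log2 differences were -3.18 ± 0.32 and -4.01 ± 0.44 (SE; adjusted p = 2.53e-05 and 4.8e-05). GF19547 between them differed by -1.73 ± 0.38 (SE; adjusted p = 0.0083), at 9.96 to 13.8 CPM in KATH and 19.2 to 58.2 CPM in FastBKK. The longest runs held 4 genes each. GF12160 to GF12163 on scaffold 13266 differed by -0.99, -0.99, -1.53 and -2.41, and among them GF12162 was at 81.1, 84.9 and 90.2 CPM in KATH and 206, 311 and 222 CPM in FastBKK. GF17565 to GF17568 on scaffold 13340 differed by between -1.58 and -0.39. The members of each of these runs of 4 have similar deposited lengths, and whether neighbours share reads through near-identical sequence was not tested. The deposited length also differed between directions: the median was 1923 bases in genes higher in KATH, 1480 in genes lower and 1712 in all genes tested. Across genes the rank correlation of length with the log2 difference was 0.10. With a correction for length in the fit, 1402 genes were called.

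The same difference between lines was measured in 3 further sets of 6 libraries that share none with the control tubule comparison. Replicate numbers recur between organs of a line, as with 1, 4 and 5 in KATH control tubule and hindgut. Whether such libraries came from the same flies is not known here, so the sets may not be independent. In the cold tubule, 1362 genes (13.4%) were called, 6.7% of the genes tested being higher and 6.74% lower in KATH, and 543 of the 1204 control calls were called there with the same sign, 225 higher and 318 lower. These are 45.1% of the control calls and 39.9% of the cold calls. Only 4 genes were called with the opposite sign, and 1097 of the 1204 had the same sign in the cold whether called or not, where 65.7% of all genes tested did. The cold libraries were fitted together with the control libraries and share their estimate of the spread. The median difference of the genes higher in KATH was 0.92 in the control and 0.57 in the cold, and of the genes lower -0.80 and -0.49. These genes were chosen by passing in the control libraries, which favours larger differences there. The medians therefore do not measure a change with the cold. Across all tested genes the log2 differences of both temperatures correlated at r = 0.47, as a description. Without KATH replicate 1, 438 control calls were called in the cold with the same sign. Recurrence was higher for larger differences: of 320 control calls with a difference up to 0.5 on the log2 scale, 28.1% were called in the cold, and of 75 with a difference over 4, 74.7% were. The share called in every fit that left out 1 library ranged in the same way, from 18.4% to 69.3%.

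**Figure D4:**
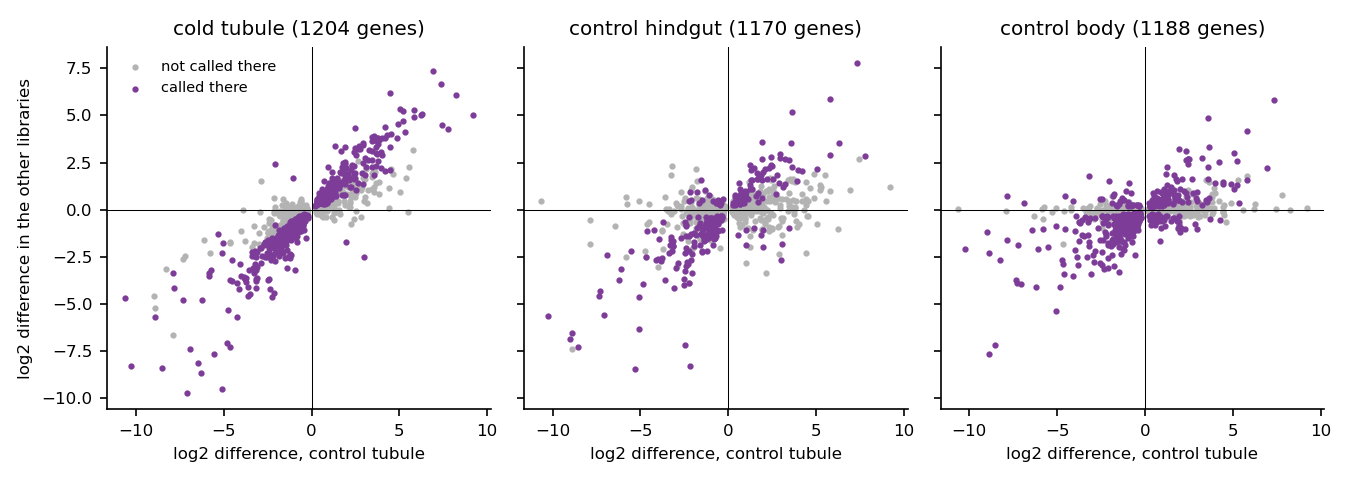
Genes called in the control tubule, with their log2 difference, KATH minus FastBKK, in the control tubule on the horizontal axis and in the cold tubule (1204 genes), control hindgut (1170 genes) and control body (1188 genes) on the vertical axes. Purple points were also called there; in the cold tubule most points lie in the quadrants of equal sign, while in the hindgut and the body many lie near a difference of 0.

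In the control hindgut, 1098 of 11323 genes (9.7%) were called. Of the 1170 control tubule calls tested there, 253 were called with the same sign and 26 with the opposite sign. The 253 are 21.0% of the tubule calls and 23.0% of the hindgut calls. Without FastBKK hindgut replicate 3, the library that carried body transcripts, 763 hindgut genes were called and 205 were shared with the tubule in sign. In the control body, 4501 of 13435 genes (33.5%) were called. There 458 tubule calls were called with the same sign and 83 with the opposite sign, which read against a background of 33.5%; the 458 are 38% of the tubule calls and 10.2% of the body calls. Of the 1204 tubule calls, 399, with a median absolute difference of 0.61, were called with the same sign in none of the 3 other sets. A group of 257 was called with the same sign in the cold tubule and in neither hindgut nor body, 137 higher and 120 lower in KATH. A gene without such a call there may have been untested or near the threshold. The group is therefore not shown to be particular to the tubule. A group of 107 was called with the same sign in all 4 comparisons, 32 higher and 75 lower in KATH, with a median absolute tubule difference of 1.64.

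The genes called in all 4 comparisons included some close to absent from 1 line in each tissue. GF13858 (FBgn0090885, scaffold 12935) was at 6.32, 4.82 and 5.79 CPM in KATH tubules and had 3 counts over the FastBKK libraries. The ratio of summed counts was 184, with a counting interval of 62.5 to 893. The difference passed with an adjusted p of 6.22e-05. In the hindgut GF13858 was at 12.4 to 16.7 CPM in KATH and 0 to 0.125 CPM in FastBKK, and in the body at 10.6 to 12.7 CPM and 0.0606 to 0.378 CPM, and SlowBKK tubules, at 0.0537 to 0.112 CPM, resembled FastBKK. GF20516 (FBgn0097522) was at 2.07 to 3.38 CPM in KATH tubules and had 4 counts over the FastBKK libraries, which puts it at least 27.5-fold higher in KATH against 3 counts per library (adjusted p = 0.00253). GF18005 (FBgn0095023), with 10 counts over the FastBKK libraries and 2.75 to 4.54 CPM in KATH, differed by 5.05 on the log2 scale. In the body the log2 differences of GF20516 and GF18005 were 1.56 and 1.11. GF20516 was low there in both lines, averaging 0.926 CPM in KATH and 0.315 CPM in FastBKK. GF18005 was not close to absent from FastBKK outside the tubule. It averaged 8.28 CPM in KATH body and 3.82 CPM in FastBKK body, and 8.08 and 1.82 CPM in the control hindgut. On the lower side stood GF24164 and GF21614, described above, and GF26477 (FBgn0273700, scaffold 12916). In the control hindgut GF24164 was low in both lines, averaging 0 CPM in KATH and 0.328 CPM in FastBKK (edgeR's quasi-likelihood test, adjusted p = 0.04). GF26477 was at 0.0313, 0.0656 and 0.0274 CPM in KATH and 19.3, 18.2 and 11.4 CPM in FastBKK. KATH had 4 counts in all, so that the gene was at least 178-fold lower in KATH against 3 counts per library (adjusted p = 0.000517). In the hindgut it was at 0 to 0.125 CPM in KATH and 4.33 to 11.5 CPM in FastBKK, and in the body at 0.112 to 0.188 CPM and 10.8 to 33.2 CPM. SlowBKK had an intermediate level of it, 3.01 to 8.77 CPM.

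Whether a line difference differed between tubule and hindgut was tested in a joint fit of the libraries of both organs, without pairing by replicate number. The body was not part of this test, so it does not show that a difference was particular to the tubule. Of 11942 genes, 532 had a line difference that differed between the organs at 22 °C (4.45%), 193 with the tubule difference more toward KATH and 339 with it more toward FastBKK. Of these, 349 were among the 1204 tubule calls, and in 346 of them the organ difference had the sign of the tubule difference, 115 higher and 231 lower in KATH. The organ difference contains the tubule difference by which these genes were called, so equal signs were favoured in advance. In 26 of the 349 the hindgut was called in the opposite direction and in 22 in the same direction. Of the 346, 187 were called in the cold tubule with the same sign. The count of 532 fell to 317 without FastBKK tubule replicate 3, to 346 without KATH replicate 1 and to 322 without KATH replicate 5.

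**Figure D5:**
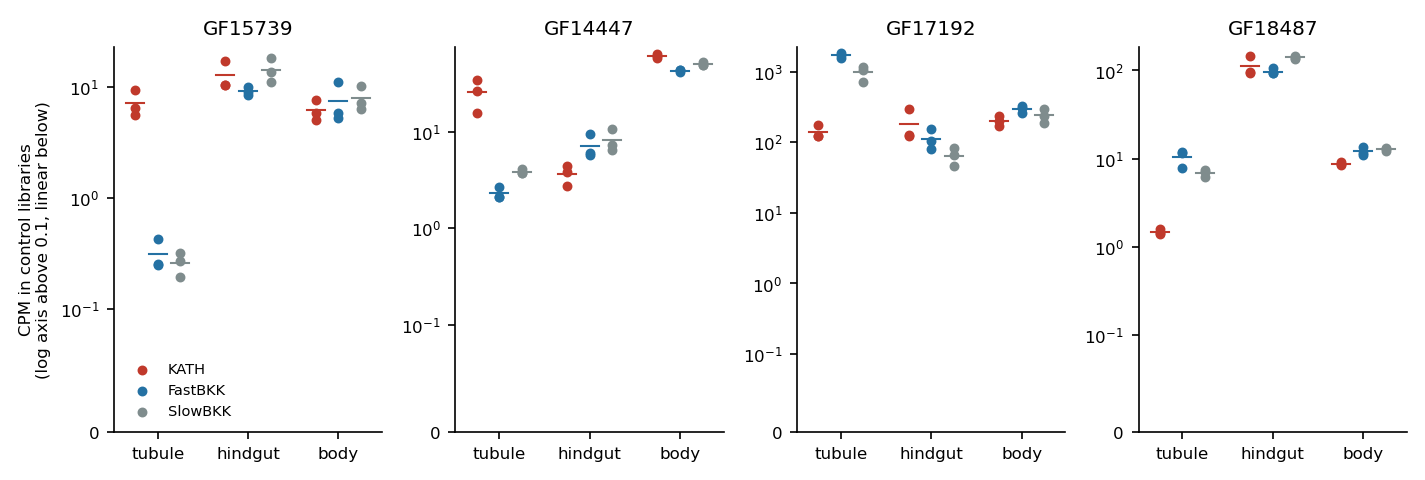
Levels in CPM of GF15739, GF14447, GF17192 and GF18487 in control tubule, hindgut and body libraries of the 3 lines, with 1 point per library. KATH and FastBKK are apart in the tubule for each gene and overlap or lie close to each other in the hindgut, apart from GF14447, which is lower in KATH hindgut. In the body GF14447 was called higher in KATH, and GF17192 and GF18487 were called lower.

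GF15739 (FBgn0092763, scaffold 12916) had the smallest p among the genes with a tubule difference more toward KATH. It was at 9.51, 5.58 and 6.51 CPM in KATH tubules and 0.256, 0.429 and 0.252 CPM in FastBKK tubules, with a log2 difference of 4.52 ± 0.29 (SE; adjusted p = 4.45e-07). In the hindgut it was at 17.3, 10.4 and 10.6 CPM in KATH and 8.50, 9.06 and 10.0 CPM in FastBKK, a difference of 0.47 that did not pass (adjusted p = 0.137). The organ difference was 4.04 ± 0.32 (SE; adjusted p = 1.82e-08), and SlowBKK tubules, at 0.196 to 0.322 CPM, resembled FastBKK. GF15740, the next symbol, had no count in FastBKK tubules and averaged 0.25 CPM in KATH, at least 2.69-fold higher (adjusted p = 0.0145). GF14447 (FBgn0091474, scaffold 12916) was at 26.1, 15.5 and 34.4 CPM in KATH and 2.67, 2.11 and 2.08 CPM in FastBKK, a log2 difference of 3.47 ± 0.26 (SE; adjusted p = 2.13e-06). In the hindgut it was lower in KATH, by -0.96 on the log2 scale (adjusted p = 0.0455), and the organ difference was 4.40 (adjusted p = 8.93e-08). In the control body GF14447 was higher in KATH, by 0.50 (edgeR's quasi-likelihood test, adjusted p = 2.04e-05). The body difference of GF15739, -0.28, did not pass that test (adjusted p = 0.404).

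GF17192 (FBgn0094210, scaffold 13340) was the most abundant of these genes. Tubules held 122, 179 and 122 CPM in KATH, 1592, 1869 and 1719 CPM in FastBKK and 728, 1075 and 1186 CPM in SlowBKK. KATH was the low line, with a log2 difference from FastBKK of -3.61 ± 0.21 (SE; adjusted p = 2.09e-07). In the hindgut it had 128, 124 and 300 CPM in KATH and 156, 105 and 79.9 CPM in FastBKK, which overlapped (adjusted p = 0.266), and the organ difference was -4.32 ± 0.46 (SE; adjusted p = 2.16e-06). The cold tubule kept the difference at lower levels, averaging 15.2 CPM in KATH and 257 CPM in FastBKK. In the control body GF17192 was also lower in KATH, by -0.56 on the log2 scale (edgeR's quasi-likelihood test, adjusted p = 0.00546). GF18487 (FBgn0095505, scaffold 13340) was at 1.56, 1.41 and 1.40 CPM in KATH tubules and 7.84, 11.6 and 12 CPM in FastBKK tubules, with a log2 difference of -2.84 ± 0.29 (SE; adjusted p = 2.38e-05). It was much higher in the hindgut, at 93.7 to 146 CPM in KATH and 92.7 to 106 CPM in FastBKK, and the organ difference was -3.05 (adjusted p = 3.21e-06). GF18487 was also lower in KATH in the control body, by -0.45 (edgeR's quasi-likelihood test, adjusted p = 0.027). FastBKK replicate 2, with the most hindgut transcripts, had the lowest of the 3 FastBKK tubule values of GF18487. The part of hindgut transcripts in these values was not tested.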

How the data were processed

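The deposited table held, for each library, the authors' unnormalized counts of reads for every gene, beside FlyBase identifiers, symbols, scaffolds and lengths, per the file headers. The length column is in another unit, bases, as the authors deposited it. Poly-A enrichment was used for the libraries according to the labels. The aligner, counter, genome build and strand setting are not given in the sources used here. The 14365 genes were filtered with filterByExpr, scaled by TMM and tested in R 4.3.3 with edgeR 4.0.16 (glmQLFit, glmQLFTest, two-sided). The fit held 18 tubule libraries with 1 coefficient per line and treatment, and p-values were adjusted by Benjamini and Hochberg over all genes tested. A call is an adjusted p under 0.05, and SE is the absolute log2 difference over the square root of F. Of 4233 genes not tested, 1545 had no count in the 6 libraries. Hindgut and body were fitted in the same way by themselves, and the organ difference in a joint fit of hindgut and tubule. CPM are TMM-scaled. DESeq2 1.42.0 was an alternative. The libraries of the series held 30.7 to 48.8 M counts, and the biological coefficient of variation in the tubule was 33.3%. Floors and intervals cover counting error only. Chi-square per degree of freedom between replicates was 55.8 to 141, over genes with at least 20 counts in a pair, so no library was taken as deposited more than once. The scripts were tested on simulated data.

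None of the identifiers matched the RefSeq gene table (0 matches), so the planned gene lists and cell type markers could not be applied and no function or sequence is given. Named genes were the 8 highest and 8 lowest log2 differences among called genes with non-overlapping groups and a mean of at least 10 CPM, the 5 most abundant called genes of each direction, the 3 of each direction with the largest difference among genes called in all 4 comparisons, and the 2 of each sign with the smallest p in the organ difference, 35 genes in all. Silent genes, runs and the group that varied with GF26684 were chosen after their values were seen. The members and lists were chosen with earlier results of these data known.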

Additional observations from a re-analysis of the deposited data

Results flagged for a closer look

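For 17 of the named genes the difference between KATH and FastBKK differed between tubule and hindgut at 22 °C, in edgeR's test of that difference itself. Expressed as the tubule difference minus the hindgut difference on the log2 scale, with positive values more toward KATH in the tubule, it was 3.94 for GF26684, 4.26 for GF16549, 2.38 for GF23204, 3.36 for GF27433, 3.71 for GF18194, 3.67 for GF26277, 3.21 for GF27381, 2.90 for GF18005, 4.04 for GF15739 and 4.40 for GF14447. It was -6.03 for GF23021, -5.58 for GF16253, -6.07 for GF26286, -5.55 for GF14544, -0.49 for GF13105, -4.32 for GF17192 and -3.05 for GF18487. Of these genes GF14447, GF15739, GF17192 and GF18487 were named for the smallest p in that test, so their place here follows from the choice. The others were named from calls in the control tubule, most of them for the largest differences there. Those same tubule libraries enter the organ difference, so the choice favours large values for these genes too. GF23204 and GF18005 were also called higher in KATH in the control hindgut. Their hindgut log2 differences were 1.54 and 2.15 (edgeR's quasi-likelihood test, adjusted p = 0.000287 and 0.00284). For these genes the lines differed in both organs, by more in the tubule.

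For GF13771 the line difference changed from control to cold within the tubule, by 4.04 on the log2 scale, in the test of that change. GF13771 was named for its control tubule difference, which that change subtracts. KATH averaged 0.697 CPM in the control and 13.4 CPM in the cold, and FastBKK 27.7 and 32.4 CPM.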

How the results depend on the processing

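None of the 1204 genes was called with the opposite sign under any alternative, and of the 161 alternative counts, 104 stayed within 1.5 times the main value. The KATH and FastBKK control groups share only replicate number 4, with a correlation of deviations of 0.392. Over 26 same-number pairs of the tubule groups it was -0.254 to 0.426 (median 0.0305), and the labels tie no number to a shared origin, so the samples were not treated as paired. With a replicate block, 542 control tubule genes were called (231 higher, 311 lower), 561 in the hindgut and 8 for the change with cold, and 303, 106 and 220 tubule calls were called with the same sign in the cold tubule, hindgut and body. With only the groups compared in the fit, the counts were 575 (255 higher, 320 lower) in the control tubule, 467 in the cold tubule, 385 in the hindgut, 238 for the organ difference and 4 for the change with cold, with 201, 96 and 240 calls shared. With all 54 libraries in 1 fit they were 2001 (884 and 1117), 2532, 2891, 1023 in the body, 880 and 417, with 900, 440 and 279 shared. Requiring a fold over 2 as well, which can only remove calls, left 526 (235 and 291), 600, 533, 785 and 327, with 280, 124 and 126 shared. A filter at 10 CPM in 3 libraries gave 695 hindgut calls and 153 shared. The count of changes with cold was 15 with upper quartile scaling, 213 with DESeq2 and 44 with a length correction. Where no value above shows the reason, the cause was not tested. DESeq2 called 1606 control tubule genes, 1199 of them among the 1204.

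Leaving out 1 control tubule library at a time gave 751 to 1135 calls (322 to 418 higher, 427 to 717 lower), 317 to 478 organ differences and 6 to 36 changes with cold. The calls shared were 417 to 503 with the cold tubule, 184 to 219 with the hindgut and 316 to 413 with the body. Leaving out FastBKK hindgut replicate 3, chosen after seeing the data, gave 763 hindgut calls and 380 organ differences. Of 556 alternative values of the named genes, 60 lost the call, all in abundant genes with small differences and 8 of them by the rule of a fold over 2, and none reversed. Depth limits the genes under 1 CPM, where a count of 3 is about 0.09 CPM.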
